A study of Mus musculus with 2 samples.

Results

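The genes described here build the excitatory glutamate synapse of the mouse hypothalamus: 36 genes for glutamate receptors, for the transporters that load glutamate into vesicles, and for the scaffold proteins beneath the receptors. They were chosen by gene name, from probe sets that the array's platform annotation pairs with exactly 1 gene, and the name rule uses no measured value, although earlier results of these data were known when it was written. The name patterns took the AMPA, kainate, NMDA and delta receptor subunits, the metabotropic receptors, Slc17a6 to Slc17a8, Dlg1 to Dlg4, Dlgap1 to Dlgap4, the Shank genes, Homer2 and Homer3. They found 70 probe sets, out of 34945 probe sets and 18193 genes with such a pairing. Genes that fit these patterns but are not among the 36 are not analysed here. Each genotype was represented by 1 array: a pool of hypothalamic RNA from 3 Crtc1 knockout mice, and a pool from 3 Crtc1 wild-type mice. All animals were males aged 12 weeks that went without food for 18 h and were then refed for 6 h. Both pools shared this fasting and refeeding, and no animals fed throughout are analysed here. Neither the strain nor the make of the Crtc1 allele is stated in the sources used here.

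Glutamate is the main fast excitatory transmitter of the brain. It is packed into vesicles by the vesicular transporters, opens AMPA, kainate and NMDA receptor channels after release, and acts more slowly through metabotropic receptors coupled to G proteins. Below the membrane, PSD-95 type proteins of the Dlg genes hold receptors in place, SAPAP proteins of the Dlgap genes join them to Shank proteins, and Homer proteins tie Shank to metabotropic receptors. In the hypothalamus, glutamate inputs drive neurons that control feeding and hormone release, and NMDA receptors on appetite neurons are known to matter for the response to fasting. Crtc1, which was knocked out here, acts with the transcription factor CREB as its coactivator. CREB binds the cAMP response element (CRE).

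The full CRE, TGACGTCA, was in none of the 39 RefSeq promoter windows found for 25 of the 36 genes, against 1.79% of all 32851 windows. Each window runs from 250 bases before to 50 bases after an annotated start (RefSeq, GRCm38.p6). Its core TGACG, searched on both strands and counted also where it lies within a full CRE, was in 6 of the 39 windows (15.4%), against 20.8% of all windows. Counted by gene, the core was in 25% of the 24 measured members with a window, against 36.1% of 9172 measured genes. The full CRE was in 3.61% of those measured genes. The 6 stretches with a core are shown because CREB sites are where Crtc1 is known to act. Each is written 5′ to 3′ on the gene's strand with 20 bases on either side and the core in capitals, as CGTCA where it lies on the opposite strand. A match is a description of the letters and not evidence of binding.
Dlg3 (chrX:100774397-100774441, plus strand): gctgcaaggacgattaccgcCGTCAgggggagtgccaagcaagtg
Dlg4 (chr11:70023886-70023930, plus strand): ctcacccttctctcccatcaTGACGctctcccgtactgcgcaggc
Dlgap4 (chr2:156720968-156721012, plus strand): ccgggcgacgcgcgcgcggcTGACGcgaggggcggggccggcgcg
Grik2 (chr10:49788734-49788778, minus strand): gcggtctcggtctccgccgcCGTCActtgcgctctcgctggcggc
Grm8 (chr6:28134421-28134465, minus strand): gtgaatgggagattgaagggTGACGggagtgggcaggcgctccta
Slc17a6 (chr7:51624515-51624559, plus strand): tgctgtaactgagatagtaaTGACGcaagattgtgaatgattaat
Positions are those of the core's first base, counted from the annotated start of its own window. The core lies 78 bases before that start in Dlg3, 76 in Dlg4, 102 in Slc17a6, 24 in Grm8 and 4 in Grik2. In Dlgap4 it is at base 24 after the start. Dlg3, Dlg4, Grm8 and Slc17a6 also have windows at other starts, without a core. By their brightest probe sets, the 6 genes with a core had a median log2 difference between the pools of 0.04, and the 18 measured genes with a window but no core had a median of -0.02. Both were small beside the spread between probe sets described below. The values for the named genes follow with their families.

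Values are linear probe-set signals as the authors deposited them, and each difference is the log2 signal of the knockout pool minus that of the wild-type pool. Signals under 20.5 in the knockout pool or 20.2 in the wild-type pool were set to that floor first. To be called measured, a probe set needed a log2 signal, averaged over the arrays, no lower than the median probe set, which corresponds to a signal near 52.3. Of the 70 probe sets 61 were measured, and 33 of the 36 genes had at least 1. Unless stated otherwise, a gene's value is that of its brightest measured probe set. With 1 array a genotype there was no replicate, so no p-value can be given, and the spread between mice is unknown. The array error quoted beside differences is the SD between measured probe sets of the same gene, taken over all genes: 0.32 for mean log2 signals under 7, 0.26 from 7 to 8, 0.23 from 8 to 9, 0.21 from 9 to 10 and 0.16 from 10 upward. It holds no variation between animals. In RNA of whole hypothalamus, fewer cells of a type and less RNA per cell cannot be told apart.

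The targeted gene was lower in the pool labelled knockout. Crtc1 read 85.1 in the knockout and 631 in the wild type by its brightest probe set, with a log2 difference of -2.89. By the other measured probe set it read 31.5 in the knockout and 209 in the wild type, and the sources used here do not say whether either lies in the altered stretch. Of 20 hypothalamic marker genes 12 were measured, 5 higher and 7 lower in the knockout pool, with a median difference of -0.09. Single peptide genes departed further: the appetite peptide gene Cartpt read 402 in the knockout and 707 in the wild type (-0.82), and Gal read 209.8 in the knockout and 297 in the wild type (-0.50). The posterior pituitary hormone genes Avp and Oxt were higher, at 1690.4 in the knockout and 1149 in the wild type (0.56) and 969 in the knockout and 695 in the wild type (0.48). Pan-neuronal markers summed to 41942 in the knockout and 42343 in the wild type, with 4 of 13 higher and a median difference of -0.02. Choroid plexus markers were lower in 7 of 8 cases, with a median of -0.34 and sums of 8609.6 in the knockout and 9707 in the wild type. Microglia markers were higher in 6 of 9 cases, with a median of 0.23 and sums of 4641 in the knockout and 4108 in the wild type. All markers of both lists were measured, and the part of tissue content in the values of the glutamate synapse genes was not tested. The ratio of 3′ to 5′ signal, which grows as RNA is degraded, was 1.47 in the knockout and 1.25 in the wild type for actin. For the transferrin receptor it was 3.85 in the knockout and 5.87 in the wild type. For pyruvate carboxylase it was 2.60 in the knockout and 1.68 in the wild type, and for Gapdh 0.86 in the knockout and 0.87 in the wild type.

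Across the glutamate synapse the 2 pools gave similar signals. None of the 33 measured genes differed 1.5-fold between the pools by its brightest probe set, where 3.5% of all 11312 measured genes did. In the knockout pool 17 were higher and 16 lower (50.9% and 49% over all measured genes), with a median log2 difference of 0.01. The median over all measured genes was 0.00. The widest gap was that of Grin3a, an NMDA receptor subunit gene, at 1.40-fold lower. Differences of at least 1.2-fold were found for 8 genes (24.2%), 4 higher and 4 lower, against a background of 21.9%. The typical size was also like that of other genes: the median absolute difference was 0.15 over the members and 0.13 over all measured genes. In 12 of the 33 genes (36.4%) the difference exceeded its array error, against 25.2% of all measured genes. No test of this gap in shares was possible with 1 array a genotype.

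**Figure D1:**
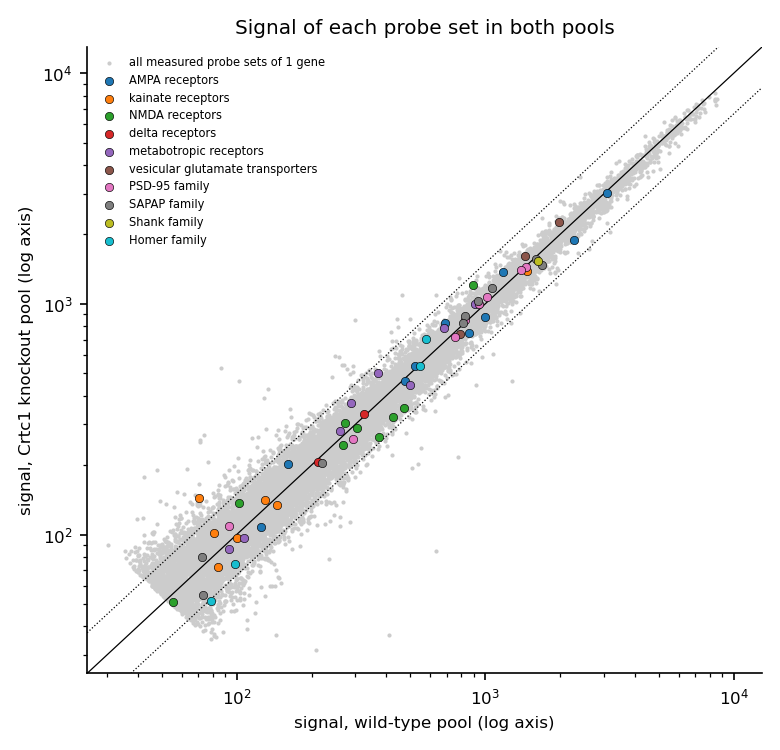
Signal of each measured probe set in the knockout pool (vertical, log axis) against the wild-type pool (horizontal, log axis). Coloured points are the 61 measured glutamate synapse probe sets by family, grey points all 19814 measured probe sets of 1 gene, the solid line equality and the dotted lines 1.5-fold. Of the coloured points 2 lie beyond the dotted lines, 1 of Grik2 above and 1 of Homer2 below.

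**Figure D2:**
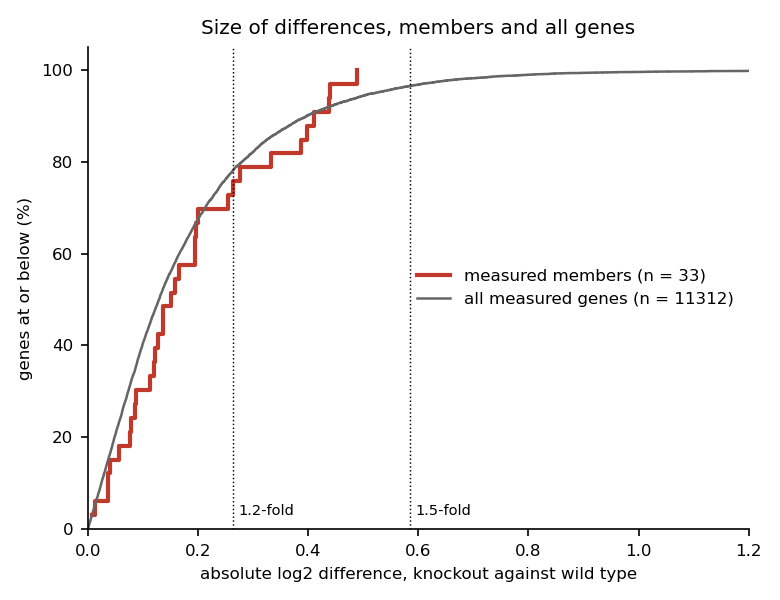
Cumulative share of genes (vertical, percent) by the absolute log2 difference between knockout and wild-type pools (horizontal), for 33 measured members (red) and all 11312 measured genes (grey). Dotted lines mark 1.2-fold and 1.5-fold. The curves run close together, and the red curve ends at 0.49, the value of Grin3a, before the 1.5-fold line.

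NMDA receptor genes included the widest difference. All 4 measured genes of this family passed 1.2-fold by their brightest probe set, 3 lower and 1 higher in the knockout pool, against 4 of the other 29 members (13.8%) and 21.9% of all measured genes. This rested on the brightest probe sets: by the mean of all measured ones 1 of the 4, Grin2c, passed 1.2-fold. The family median was -0.40 by the brightest probe sets, -0.16 by that mean and -0.08 once dim probe sets were kept in. NMDA receptors are calcium-permeable channels that open when glutamate meets a depolarised membrane, and the Grin2 subunits set their kinetics. Grin2b, the subunit gene that gives NMDA receptors a slow decay, read 1206 in the knockout and 889 in the wild type (0.44, array error 0.16). Its signal was higher in the knockout pool. Of measured probe sets with a mean log2 signal from 10 upward, 0.947% were as far apart. The mean of this probe set, 10.02, was at the lower edge of that range, below which the array error was 0.21. The next 2 probe sets of Grin2b read 303 in the knockout and 272 in the wild type and 288 in the knockout and 306 in the wild type, differences of 0.16 and -0.08 that are within the array error of 0.23 and of opposite sign. The brightest probe set thus stood alone, and the mean of the 3 was 0.17. A further one, 1431700_at, was below the floor on both arrays.

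Grin2c, whose subunit is best known from cerebellar granule cells, read 354 in the knockout and 471 in the wild type. It was 1.33-fold lower (-0.41, array error 0.23) by its single probe set, a gap that 5.73% of measured probe sets with a mean log2 signal from 8 to 9 reached. Grin2d, a subunit gene of diencephalic neurons and interneurons, read 325 in the knockout and 425 in the wild type (-0.39). Its dimmer probe set read 51.2 in the knockout and 55.5 in the wild type, a difference of -0.12 in the same direction and within its error of 0.32. The knockout signal lay under 52.3, so this dimmer probe set counts as measured through its wild-type signal and adds little to the direction. Grin3a encodes a subunit that lowers the calcium flow of the channel. Probe set 1436575_at read 265 in the knockout and 372 in the wild type (-0.49, error 0.23), which 3.14% of probe sets in that range reached, and 1438866_at read 244 in the knockout and 267 in the wild type (-0.13). Against these, 1458378_at was higher in the knockout pool at 137 in the knockout and 102 in the wild type (0.43). With signals of both directions, the mean for Grin3a was -0.06 and its direction was not settled. Of the subunit genes that were not measured, Grin2a read 51.2 in the knockout and 43.6 in the wild type and Grin3b 37.0 in the knockout and 19.5 in the wild type, where the wild-type signal was under the floor of 20.2.

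**Figure D3:**
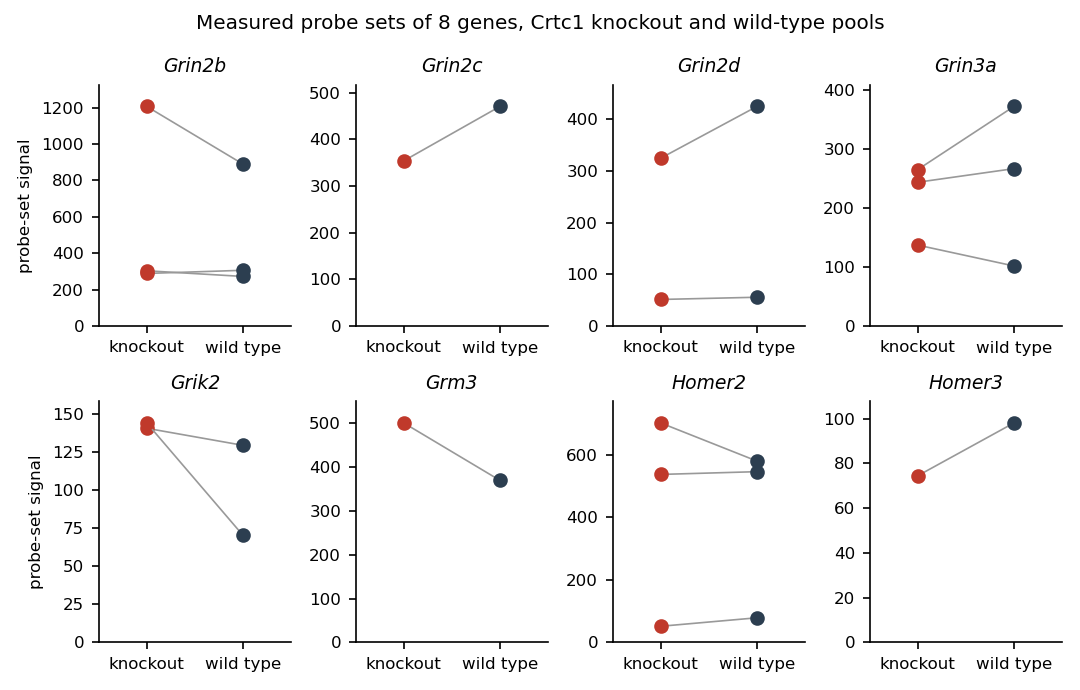
Signal (vertical, linear, from 0) of each measured probe set of 8 genes in the knockout pool (left, red) and the wild-type pool (right, dark), joined by a line per probe set. Both lines of Grin2d are lower in the knockout pool, the lines of Grin2b, Grin3a and Homer2 run both ways, and 1 of the 2 probe sets of Grik2 reads 144 in the knockout and 70.4 in the wild type.

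AMPA receptor genes, which carry fast excitatory currents, all lay under 1.2-fold. Gria1 was the one with the same direction in every probe set: it read 1899 in the knockout and 2279 in the wild type (-0.26, array error 0.16) and 875 in the knockout and 996 in the wild type (-0.19, error 0.21). Both readings were lower in the knockout pool, and the second was within its error. Of measured probe sets above 10, 5.47% were as far apart as the first. Gria2, whose edited subunit keeps calcium out of the channel, read 3023 in the knockout and 3101 in the wild type by its brightest probe set (-0.04). Its other readings were 1370.2 in the knockout and 1177 in the wild type (0.22) and 536 in the knockout and 522 in the wild type (0.04), so the sign varied. Gria3 read 823 in the knockout and 689.5 in the wild type (0.25) and 465 in the knockout and 478 in the wild type (-0.04). Gria4, known for fast gating, read 751 in the knockout and 859 in the wild type (-0.19), 202 in the knockout and 161 in the wild type (0.33) and 108 in the knockout and 126 in the wild type (-0.22), again with both signs. The family median was -0.12 by the brightest probe sets and 0.02 by the mean of all measured ones.

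Kainate receptor genes included the single probe set of all 70 that passed 2-fold among those measured. Kainate receptors sit on both sides of the synapse and tune release as well as carry current. Grik2 read 144 in the knockout and 70.4 in the wild type by 1457683_at, 2.05-fold higher in the knockout pool (1.03, array error 0.32). In its range of signal, 1.05% of measured probe sets were as far apart, and 0.57% of all measured probe sets of 1 gene passed 2-fold in either direction. The brighter probe set of the same gene read 141 in the knockout and 129.5 in the wild type, a difference of 0.12 within its error of 0.26. The value of Grik2 therefore rested on which probe set was taken, and the mean of both was 0.58. Grik3 read 102 in the knockout and 80.9 in the wild type (0.33, error 0.32), and a second probe set was below the limit, with 23.2 in the knockout and 7.3 in the wild type. Grik1 read 96.8 in the knockout and 101 in the wild type (-0.06) and 72.2 in the knockout and 84.1 in the wild type (-0.22), both within the error. The high-affinity subunit genes Grik4 and Grik5 read 134 in the knockout and 145 in the wild type (-0.11) and 1388 in the knockout and 1473 in the wild type (-0.09). Grid1, a delta subunit gene whose protein binds cerebellins at the synapse, read 333 in the knockout and 325 in the wild type (0.04) and 206 in the knockout and 213 in the wild type (-0.05).

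Metabotropic receptor genes were higher in 4 of 6 cases, with a median difference of 0.13. Grm3, a receptor gene of astrocytes and presynaptic endings that inhibits adenylyl cyclase, read 500.3 in the knockout and 369 in the wild type. This was 1.35-fold higher in the knockout pool (0.44, array error 0.23) by its single probe set, and 4.76% of probe sets from 8 to 9 were as far apart. The astrocyte markers summed to 23931 in the knockout and 23541 in the wild type, with 6 of 10 higher and a median difference of 0.02, and all 10 were measured. Grm2, of the same receptor group, read 282 in the knockout and 259.6 in the wild type (0.12). Grm5, which couples to phospholipase C and binds Homer, was higher by both probe sets: 997 in the knockout and 907 in the wild type (0.14, error 0.21) and 372 in the knockout and 289.6 in the wild type (0.36, error 0.23). The second reading exceeded its error and the first did not. The presynaptic receptor genes Grm4, Grm7 and Grm8 read 445 in the knockout and 499 in the wild type (-0.17), 783 in the knockout and 684 in the wild type (0.20) and 96.6 in the knockout and 107 in the wild type (-0.15). Each of these 3 was within its array error, and a dimmer measured probe set of Grm7 had the opposite sign (-0.11).

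The vesicular transporter genes mark the neurons that release glutamate. Slc17a6, the transporter gene of most hypothalamic and thalamic glutamate neurons, read 1609.8 in the knockout and 1443 in the wild type (0.16, array error 0.16) and 742 in the knockout and 789 in the wild type (-0.09, error 0.21). The readings had opposite signs and neither exceeded its error. Slc17a7, the transporter gene typical of cortex and hippocampus, read 2269 in the knockout and 1983 in the wild type (0.19, error 0.16) by its single probe set. Of the 9 other measured cortex and hippocampus markers 5 were higher and 4 lower, with a median of 0.12, and they summed to 4800.2 in the knockout and 4936 in the wild type. Of the 13 genes on that list 10 were measured, Slc17a7 included, and the share of cortical tissue in each pool was not tested. The widest difference among them was that of Neurod6, higher at 168 in the knockout and 107 in the wild type (0.65, array error 0.26). Emx2 (-0.46, error 0.32), Neurod2 (-0.38, error 0.23) and Fezf2 (-0.37, error 0.32) followed in size and were lower. The measured probe sets of Neurod2 did not share a sign. The 6 other thalamus markers had 3 higher and 3 lower, a median of -0.02, and sums of 7336 in the knockout and 7621 in the wild type.

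Scaffold genes of the postsynaptic density gave nearly equal signals in the pools. The 9 measured genes of the PSD-95, SAPAP and Shank families all lay within 1.15-fold, and their median difference was 0.01. Dlg4, which encodes PSD-95, the core scaffold for NMDA receptors, read 1398 in the knockout and 1390.3 in the wild type (0.01) and 717 in the knockout and 755 in the wild type (-0.07). Dlg1, for SAP97, read 1444 in the knockout and 1457 in the wild type (-0.01) and 849 in the knockout and 827 in the wild type (0.04). Dlg2, for PSD-93, read 994 in the knockout and 944 in the wild type (0.08) by its brightest probe set, and its 2 dimmer ones differed by -0.17 and 0.23. Dlg3, for SAP102, read 1074 in the knockout and 1017 in the wild type (0.08). All 4 Dlg genes lay within 1.06-fold, well inside the array error. The signs of Dlg1 and Dlg4 were not kept under every scaling.

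Dlgap1 was the member with the most readings. Its 3 bright probe sets read 1168 in the knockout and 1069 in the wild type, 1030.4 in the knockout and 932 in the wild type and 888 in the knockout and 828 in the wild type, with differences of 0.13, 0.15 and 0.10. The 2 dimmer measured ones were lower in the knockout pool, by 204 in the knockout and 221 in the wild type (-0.12) and 54.6 in the knockout and 73.0 in the wild type (-0.42, array error 0.32). Dlgap2 read 79.8 in the knockout and 72.6 in the wild type (0.14), Dlgap3 1560.3 in the knockout and 1604 in the wild type (-0.04) and Dlgap4 1469 in the knockout and 1687 in the wild type (-0.20). Of these, Dlgap4 exceeded its error of 0.16, and its other probe set differed by 0.02. Shank3, whose protein is a large platform under the PSD-95 layer, read 1540.1 in the knockout and 1636 in the wild type (-0.09), and Shank1 was below the limit, with 43.3 in the knockout and 34.5 in the wild type.

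By their brightest probe sets the Homer genes departed further than these scaffold genes, without a shared direction. Homer proteins link metabotropic receptors to Shank and to intracellular calcium channels. Probe set 1436110_at of Homer2 read 51.6 in the knockout and 78.7 in the wild type, 1.53-fold lower in the knockout pool (-0.61, array error 0.32). The knockout signal lay under 52.3, so this probe set counts as measured through its wild-type signal. Among measured probe sets with a mean log2 signal under 7, 9.55% were as far apart. Past 1.5-fold lay 2 of the 61 measured probe sets, against 4.44% of all measured probe sets of 1 gene. The brighter probe sets of Homer2 read 701 in the knockout and 579.5 in the wild type (0.28) and 537 in the knockout and 546 in the wild type (-0.02), so the 3 readings did not share a sign. In the signal range of these brighter ones, 11.1% and 89.1% of measured probe sets were as far apart. Homer3 read 74.5 in the knockout and 98.1 in the wild type, 1.32-fold lower (-0.40, error 0.32) by a single dim probe set. In its range of signal, 24.9% of measured probe sets were as far apart. Homer3 lies 7 protein-coding genes from Crtc1 on chromosome 8, in the gene order of RefSeq assembly GRCm38.p6. Among the 13 measured genes within 10 genes of Crtc1 on either side, 3 lay past 1.5-fold (23.1%, where the background was 3.5%): Sugp2 was higher, and Upf1 and Tmem59l were lower. Homer3 was not among them. The part of its position in its value was not tested. Dlgap2 is the other member on chromosome 8, 353 genes from Crtc1. Homer1, left out by the name rule and named here after its values were seen, was higher in all 5 measured probe sets, from 0.03 to 0.35, and its brightest read 1307 in the knockout and 1278 in the wild type. With each array divided by its median the sign of that brightest probe set turned, to -0.03.

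**Figure D4:**
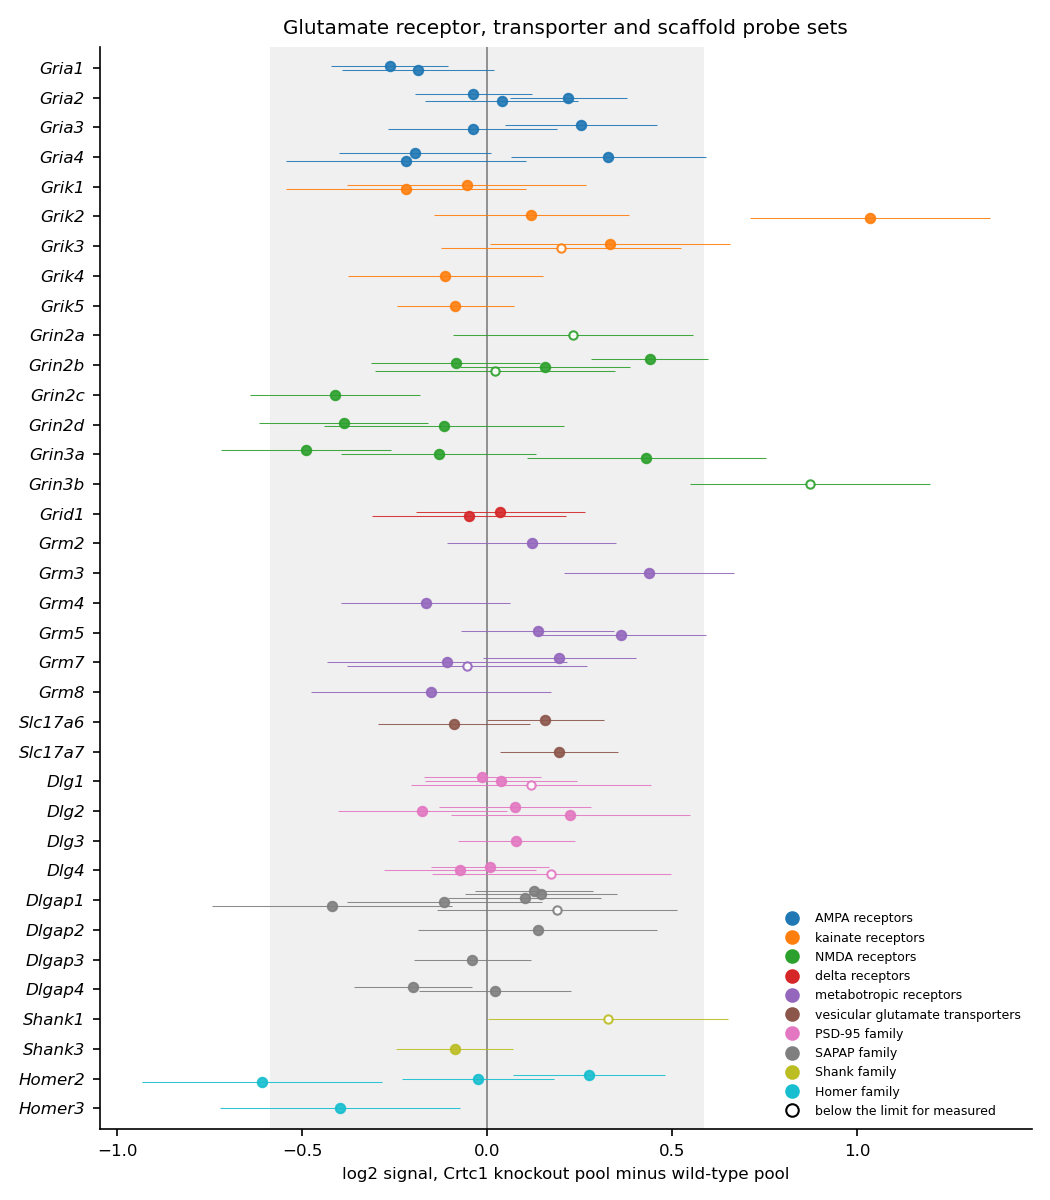
Log2 difference, knockout minus wild-type pool (horizontal), of all 70 probe sets, 1 row per gene and coloured by family. Bars are the array error at that signal, open circles are the 9 probe sets below the limit for measured, and the grey band is 1.5-fold either way. The brightest probe sets of Dlg1 to Dlg4 lie between -0.01 and 0.08, while probe sets of Grik2, Grin3a and Homer2 lie far apart within a gene.

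Probe sets of the same member often disagreed. Of the 19 genes with at least 2 measured probe sets, 5 (26.3%) had all readings of one sign: Grik2 and Grm5 higher, and Gria1, Grik1 and Grin2d lower. The dimmer probe set of Grin2d counts as measured only through its wild-type signal. Over all 5199 genes with at least 2 the share was 42.5%. Among genes with exactly 2 the shares were 41.7% of 12 members and 54.5% of 3100 genes. With exactly 3 they were 0% of 6 members and 30.7% of 1340 genes. The gap between a member's highest and lowest reading had a median of 0.27, against 0.28 over all such genes, and reached 0.92 in Grin3a, 0.91 in Grik2 and 0.88 in Homer2. For these 3 genes the choice of probe set moved the value more than any difference between pools found for a measured member by its brightest probe set.

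Other genes of the glutamate synapse were set beside the members, from a list of 57 auxiliary subunits, uptake carriers, adhesion proteins and signalling partners. Of the 53 measured 25 were higher, 27 lower and 1 equal, with a median of 0.00. At 1.5-fold, 2 (Cacng8 and Grip1) were higher and none lower, where the background was 2.06% higher and 1.44% lower. Cacng8, an AMPA receptor auxiliary subunit gene, read 91.9 in the knockout and 45.3 in the wild type, which is 2.03-fold higher (1.02, array error 0.32). The wild-type signal lay under 52.3, so this probe set counts as measured through its knockout signal. The other probe set of Cacng8 read 65.3 in the knockout and 59.4 in the wild type, a difference of 0.14. By the mean of both it was at 0.58, under 1.5-fold. Grip1, whose PDZ protein binds AMPA receptors, read 98.2 in the knockout and 64.9 in the wild type (0.60, error 0.32), and a probe set below the limit had the opposite sign (-0.53). Grip1 was under 1.5-fold in 4 of the 9 alternatives that gave a value, the 3 other scalings and the pseudocount.

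Next in size on that list were Frrs1l and Cask. Frrs1l, needed for assembly of AMPA receptors, read 2789 in the knockout and 2006 in the wild type (0.48, array error 0.16) and, by its other probe set, 1212 in the knockout and 1041 in the wild type (0.22). Cask, a scaffold kinase that binds neurexins, was higher in all 4 measured probe sets, with differences of 0.41, 0.46, 0.83 and 0.68 from the brightest to the dimmest. Their mean, 0.60, was past 1.5-fold. Its brightest read 399 in the knockout and 301 in the wild type. The glial glutamate transporter gene Slc1a2 read 5343 in the knockout and 5330.4 in the wild type, a difference of 0.00, and was named after its value was seen.

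GABA and glycine receptor genes, the inhibitory counterpart, were chosen by name in the same way. Of 13 measured genes 7 were higher and 6 lower, their median was 0.06 and their median absolute difference 0.08, and none passed 1.5-fold. Potassium channel genes had a median of 0.03 and a median absolute difference of 0.16 over 58 genes. Of the 58, 2 (Kcna5 and Kcnt2) were at least 1.5-fold higher, where 2.06% of all measured genes were. Kcnt2 read 77.9 in the knockout and 39.4 in the wild type, where the wild-type signal lay under 52.3. The median absolute difference of the glutamate members, 0.15, lay between 0.08 and 0.16, and no test of the differences between families was possible.

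**Figure D5:**
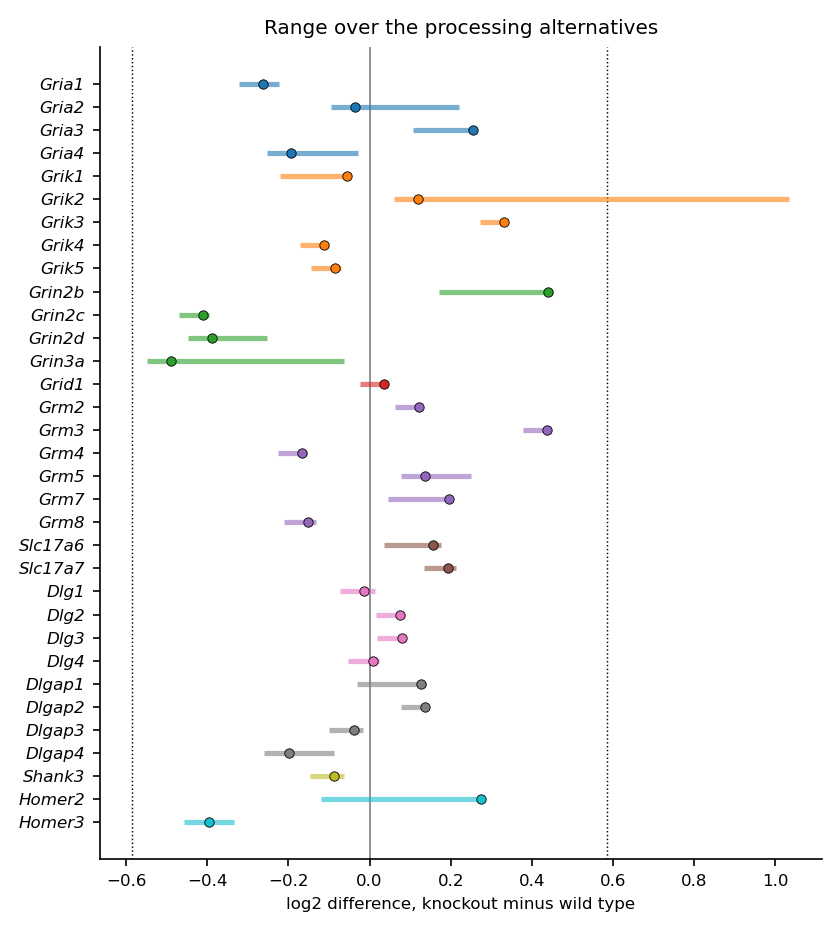
Log2 difference, knockout minus wild-type pool (horizontal), of the 33 measured members. Points are the reported value, bars run from the lowest to the highest value over all settings of scaling, floor, filter and choice of probe set, and dotted lines mark 1.5-fold. Grik2 alone crosses a dotted line, reaching 1.03, and the bars of Gria2, Grid1, Dlg1, Dlg4, Dlgap1 and Homer2 cross 0.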

How the data were processed

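Per the labels, 30 ug of total RNA went into biotin-labelled cRNA, which was hybridised to 1 Affymetrix array per genotype, after RNA of 3 mice had been pooled. The authors deposited linear signal intensities, 1 per probe set and array. The sources used here name no summarising algorithm. Judged by the values, the mean without the lowest and highest 2% was 200.0 on both arrays, as it would be had each been scaled to one target. No source used here states that step. The medians, 54.4 for knockout and 52.2 for wild type, differed by 0.06 on the log2 scale, and the deposited scaling was kept. The number of arrays limits the precision.

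Of 45101 probe sets 64 controls were left out. Of the rest the platform annotation paired 34945 with 1 gene and 932 with several, and left 9160 unpaired here, and 34741 of the first had a gene ID in the RefSeq table (GRCm38.p6), through which symbols were updated. Signals were floored at each array's 30th percentile, put on the log2 scale and filtered at the median mean signal, which left 11312 genes. Calculations used Python 3.11.15, pandas 2.3.3 and statsmodels 0.14.6, and were tested on simulated data. The simulated noise was equal at every signal and smaller than the array error, and all probe sets of a gene changed alike. That run checks the calculations and cannot show how well differences are found in these arrays. No test between genotypes was possible with 1 array each.

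The members, lists and settings were chosen with earlier results of these data known. Every member could be named, and, of the other lists, genes past 1.5-fold or among the 4 with the largest difference. Genes named outside this rule, after their values were seen, are Homer1, Slc1a2, the 3 neighbours of Crtc1 and the 2 potassium channel genes. Alternatives were 3 scalings, other floors, a pseudocount of 16, other filters, the mean of probe sets, and leaving out probe sets ending in _a_at, _s_at or _x_at.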

Additional observations from a re-analysis of the deposited data

How the results depend on the processing

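No paired analysis was possible because each genotype is 1 pooled array, and for the same reason no sample could be left out. The median difference of the members, 0.01 as reported, ran from -0.052 with each array divided by its median to 0.06 with no filter on dim probe sets. The other glutamate synapse list gave -0.061 with each array divided by its median, a step that shifts all genes by the same amount. Of the 33 measured members 27 kept their sign under every alternative that gave them a value, of which 7 had none at the 70th-percentile filter, and Grm8 also none without _a_at, _s_at and _x_at probe sets. Under the 3 scalings 30 kept it. The other floors and filters left each value they gave for these 33 members unchanged, and a pseudocount cannot turn a sign. For the 14 members with 1 measured probe set, the mean of probe sets is the same value. The count of 27 thus rests on the scalings and the choice of probe set. Gria3, Gria4, Grin2b, Grin3a, Grm7, Slc17a6, Dlg2 and Dlgap4 count as kept, although their own measured probe sets differ in sign. The count of members at least 1.5-fold higher became 1 with no filter, where Grin3b, floored in the wild-type pool, enters, and 1 without _a_at, _s_at and _x_at probe sets, where Grik2 takes its dimmer probe set (1.03). With averaged probe sets 5 members in place of 8 passed 1.2-fold, and Grin3a was at -0.06, Grin2b at 0.17 and Homer2 at -0.12. Over all genes the count past 1.5-fold, 396 as reported, was 234 with a pseudocount, 1301 with no filter and 94 with a filter at the 70th percentile. Cacng8 was under 1.5-fold with averaged probe sets (0.58), where Cask passed it (0.60), and Grip1 was under it with the 3 scalings and the pseudocount, to as low as 0.50. Dim members, such as Homer3, Grik1, Grik3, Grm8 and Dlgap2, have signals close to the limit for measured, where the array error is widest. The deposited values carry no detection calls used here.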
